A study of Homo sapiens with 2 samples.

Results

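The AP-1 factor genes examined here were FOS, FOSB, FOSL1, FOSL2, JUN, JUNB, JUND, ATF3, BATF3 and MAFF, 10 named genes among 20033 protein-coding genes of the RefSeq table on GRCh38.p14, which is the same primary assembly as the hg38 of the deposited files. DNase I hypersensitivity had been mapped in a pair of established osteosarcoma cell lines of human origin, Saos-2 and U2OS, each by 1 library. The labels give no treatment, time or introduced allele for either line. Hotspots, which are stretches with more DNase I cuts than the background, were taken as the authors called them at a false discovery rate of 0.05. A hotspot was assigned to a gene when it overlapped the gene span extended by 100 kb on both sides. These windows held 97 of 51556 hotspots in Saos-2 and 131 of 63388 in U2OS. The windows of ATF3 and BATF3 overlap on chromosome 1, and their shared hotspots were counted once in totals and under both genes otherwise. With 1 library per line there was no replicate error, so differences compare these libraries and no p-value is given.

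AP-1 is a dimeric transcription factor built from basic leucine zipper proteins. FOS proteins must pair with a partner such as a JUN protein to bind DNA, whereas JUN proteins can also pair with each other. ATF3 and BATF3 are related zipper proteins that can join JUN proteins, and MAFF is a small MAF protein that lacks a transactivation domain. FOS, FOSB, JUN, JUNB and ATF3 are immediate early genes, whose transcription rises quickly when cells are stimulated, and FOS is known for its role in osteoblast growth and bone tumours.

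A promoter hotspot was one within 1 kb of a transcription start in the RefSeq promoter table, which held starts for 8 of the 10 genes. FOSL1 and BATF3 had no entry, so both gene ends were used for them, as for every other gene without an entry. The table has no exons, so positions inside a gene are given as inside its span. Each hotspot carries the authors' −log10 significance, which has a minimum of 1.301 and is limited to 100. This value describes the hotspot within its own list and depends on sequencing depth, which is unknown for both libraries.

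The promoter sequences show what the hotspots did and did not cover. JUN, FOSL2, MAFF and JUND are printed because a hotspot reached their start region in both lines, and FOS and JUNB because none overlapped the printed bases in either line. Each run is the 250 bases before the start, from RefSeq on GRCh38.p14, 5′ to 3′ on the gene's strand. Capitals mark matches, on either strand, to 7 motifs. These were the AP-1 site with letters TGANTCA, the cyclic AMP response element (CRE) with letters TGACGTCA and the CArG box by its name. The others were the CCAAT box by its letters, the GC box with letters GGGCGG, the TATA box with letters TATAAA and the ETS site with letters CCGGAAG. Among these genes no match of the AP-1 site overlaps one of the CRE.
JUN (chr1:58784048-58784297, minus strand): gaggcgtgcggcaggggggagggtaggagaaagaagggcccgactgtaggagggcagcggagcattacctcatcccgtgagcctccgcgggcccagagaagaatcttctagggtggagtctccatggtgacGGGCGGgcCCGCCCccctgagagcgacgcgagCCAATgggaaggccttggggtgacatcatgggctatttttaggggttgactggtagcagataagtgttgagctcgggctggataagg
FOSL2 (chr2:28392608-28392857, plus strand): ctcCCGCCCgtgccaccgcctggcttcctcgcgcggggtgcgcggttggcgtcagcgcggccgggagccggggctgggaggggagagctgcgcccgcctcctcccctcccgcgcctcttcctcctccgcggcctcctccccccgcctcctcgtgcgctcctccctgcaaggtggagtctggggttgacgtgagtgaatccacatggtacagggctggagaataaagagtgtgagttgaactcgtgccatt
MAFF (chr22:38201744-38201993, plus strand): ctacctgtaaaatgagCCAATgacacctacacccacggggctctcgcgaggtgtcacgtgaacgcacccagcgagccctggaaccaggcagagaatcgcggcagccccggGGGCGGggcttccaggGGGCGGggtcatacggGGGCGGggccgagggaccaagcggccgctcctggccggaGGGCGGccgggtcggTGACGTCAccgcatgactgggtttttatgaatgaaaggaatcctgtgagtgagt
JUND (chr19:18281623-18281872, minus strand): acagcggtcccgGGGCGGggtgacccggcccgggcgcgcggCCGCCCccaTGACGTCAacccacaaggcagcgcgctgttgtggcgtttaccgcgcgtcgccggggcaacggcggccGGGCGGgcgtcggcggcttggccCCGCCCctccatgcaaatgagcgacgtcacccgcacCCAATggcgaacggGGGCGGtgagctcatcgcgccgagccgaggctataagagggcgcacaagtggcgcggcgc
FOS (chr14:75278578-75278827, plus strand): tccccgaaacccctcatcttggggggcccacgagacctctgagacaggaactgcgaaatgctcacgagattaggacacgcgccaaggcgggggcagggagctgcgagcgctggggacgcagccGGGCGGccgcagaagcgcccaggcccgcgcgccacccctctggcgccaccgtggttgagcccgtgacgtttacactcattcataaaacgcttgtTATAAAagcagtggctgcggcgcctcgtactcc
JUNB (chr19:12791236-12791485, plus strand): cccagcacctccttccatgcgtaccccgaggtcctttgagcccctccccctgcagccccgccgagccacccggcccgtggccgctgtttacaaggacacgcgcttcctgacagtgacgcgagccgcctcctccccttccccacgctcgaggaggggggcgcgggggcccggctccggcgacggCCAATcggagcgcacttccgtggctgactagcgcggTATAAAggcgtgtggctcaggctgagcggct

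The AP-1 motif was found in 1 of the 10 promoter windows of these genes, that of FOSL2, and in 6.15% of 22198 protein-coding promoter windows of the same length (250 bases before to 50 after a start). The match begins 5 bases into the transcript, and the 30 bases around it are shown with the motif in capitals, on the plus strand at chr2:28392851-28392880.
FOSL2 start: tgccattgtagTGACTCAtctcgggcagag
This match lay inside the promoter hotspot of both lines. The CRE was found in JUND, at 200 bases before the start, and in MAFF, at 54 bases before the start, compared with 2.26% of protein-coding promoters. Both CRE matches also lay inside hotspots of both lines. Over all protein-coding promoters, 22.0% of 1439 AP-1 matches and 59.9% of 516 CRE matches lay inside hotspots of both lines. A match is a run of letters and was not tested as a binding site. Only the stated letters were searched for, so a window without a match may still hold a related site. The printed JUN bases, for example, hold TGACATCA, which matches neither the AP-1 nor the CRE letters and was not counted.

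The CArG box and the ETS motif had no match in any of the 10 windows, and were found in 1.25% and 12.8% of protein-coding promoters. Bases outside the windows were not searched, among them those under the U2OS promoter hotspot of FOS. TATAAA was found near the starts of FOS, FOSB and JUNB, at 33, 30 and 31 bases before the start, and at 230 bases before the second start of ATF3. It was present in 9.47% of protein-coding promoters. FOS, FOSB and JUNB were also genes without a hotspot over these bases. GC content of the 250 bases was 64.8% in FOS, 65.6% in FOSB and 70.8% in JUNB, compared with 62.0% in JUN, 69.6% in FOSL2 and a median of 62.0% for protein-coding promoters. Among protein-coding promoters with a GC content of 58.4 to 65.2%, which includes FOS, 58.3% had a hotspot within 1 kb in Saos-2 and 61.8% in U2OS. At 65.2 to 72.0%, which includes FOSB and JUNB, 61.0% and 66.6% did. ATF3, which also had no promoter hotspot, had a lower GC content, 49.2% and 44.8% before its 2 starts. At 0.4 to 49.2%, which includes the second of these, 18.2% of promoters had a hotspot within 1 kb in Saos-2 and 20.8% in U2OS. The part of base composition in the missing hotspots was not tested.

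Promoter hotspots were found at 5 of the 10 genes in Saos-2 and at 7 in U2OS, against 48.1% and 53.5% of all protein-coding genes. FOSL1, FOSL2, JUN, JUND and MAFF had one in both lines, which is 5 of 10 against a background of 43.3%. FOS and BATF3 had one in U2OS only, 2 of 10 against 10.1%, and none of the genes had one in Saos-2 only, a class that held 4.79% of genes. FOSB, JUNB and ATF3 had none near their table starts in either line, and 41.8% of genes had none in either line. With a count of 10 genes these shares are close to the background. The counts depend on the distance allowed, since within 2.5 kb of a start 9 genes had a hotspot in each line. The upper 50% of each list by significance left 2 genes in Saos-2 and 3 in U2OS. In lists of equal length both lines had 5 genes, since the U2OS hotspots of FOS and JUND were lost, so the difference between the lines was no longer present.

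**Figure D1:**
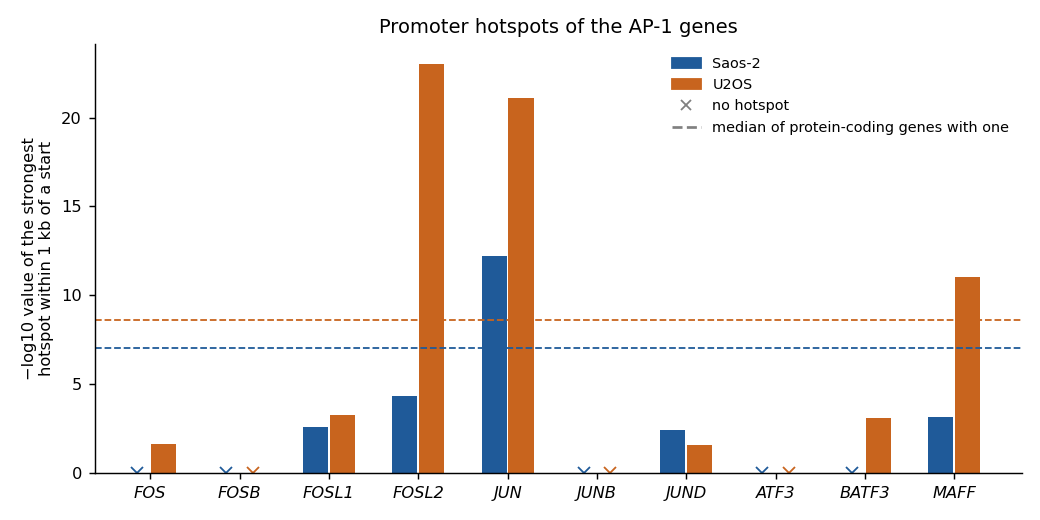
Bars give the −log10 significance of the strongest hotspot within 1 kb of a start for each AP-1 gene (blue, Saos-2; orange, U2OS), crosses mark genes without one, and dashed lines give the median over protein-coding genes that have one. JUN exceeded the median in both lines, FOSL2 and MAFF in U2OS, and the other bars lie below it.

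In the JUN family the promoters ranged from strong to uncalled. JUN (gene 3725, chr1:58780791-58784047, minus strand), the founding member of AP-1, had the strongest promoter hotspot of the 10 genes in Saos-2. It spanned chr1:58783962-58784472 (511 bp) with a −log10 of 12.2 in Saos-2 and chr1:58783897-58784543 (647 bp) with 21.1 in U2OS. These values exceeded those of 72.1% and 82.4% of protein-coding genes with a promoter hotspot. All 250 printed JUN bases lay inside both hotspots, including the CCAAT match and both GC box matches. A second U2OS hotspot of 142 bp, with a −log10 of 2.13, lay 525 bp before the JUN start and had no Saos-2 overlap. It was lost in lists of equal length, in the upper 50%, within 500 bp and at a width of at least 200 bp, and joined the first hotspot when gaps below 150 bp were merged.

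JUND (gene 3727, chr19:18279694-18281622, minus strand), the JUN family member known for steady expression, had weak promoter hotspots. In Saos-2 it was 250 bp wide with a −log10 of 2.41 and lay 29 bp before the start. In U2OS it was 67 bp wide with a −log10 of 1.55 and covered the CRE match but not the CCAAT match. Its GC content before the start, 74.8%, was the highest of the 8 genes with a sequence. JUNB (gene 3726, chr19:12791486-12793315, plus strand), an inducible JUN protein, had no hotspot within 10 kb in U2OS. In Saos-2 its nearest hotspot was 106 bp wide with a −log10 of 1.97, 1.38 kb before the start and inside HOOK2. Of the JUN family, JUN was thus called strongly in both lines, JUND weakly in both, and JUNB in neither.

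In the FOS family FOSL2 was called at its start in both lines, and FOSL1 at a gene end that was used as a start. FOS (gene 2353, chr14:75278828-75282230, plus strand) had no promoter hotspot in Saos-2. U2OS had 1 hotspot of 95 bp with a −log10 of 1.62, at chr14:75278470-75278564, which ends just before the printed bases. That value is near the minimum of the list, and only 1.52% of protein-coding genes with a promoter hotspot had a lower one. A pair of overlapping hotspots lay 1.72 kb before the FOS start in Saos-2 (78 bp, −log10 1.66) and 1.61 kb before it in U2OS (201 bp, −log10 2.12).

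FOSB (gene 2354, chr19:45467996-45475179, plus strand) had no promoter hotspot in either line. Hotspots inside its span lay 1.24 kb past the start in U2OS (155 bp, −log10 2.26) and 1.79 and 2.27 kb past it in Saos-2 (149 and 67 bp, −log10 2.39 and 1.52), and none of them overlapped between the lines. FOSL1 (gene 8061, chr11:65892049-65900545), which encodes FRA-1, had a hotspot over its upper-coordinate end in both lines. It was 203 bp wide with a −log10 of 2.61 in Saos-2, and in U2OS it measured 246 bp with 3.27. FOSL1 was therefore called in both lines, below the medians of 7.04 and 8.61 for protein-coding genes with a promoter hotspot.

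FOSL2 (gene 2355, chr2:28392858-28417317, plus strand), which encodes FRA-2, had the strongest promoter hotspot of the 10 genes in U2OS. It spanned chr2:28392626-28393032 (407 bp) with a −log10 of 22.99 in U2OS and chr2:28392689-28392940 (252 bp) with 4.32 in Saos-2, a 5.32-fold difference in the value. It exceeded 84.9% of protein-coding genes with a promoter hotspot in U2OS and 30.1% in Saos-2. A second U2OS promoter hotspot of 210 bp and −log10 3.43 lay 324 bp before the FOSL2 start. The position of the start was thus covered in both lines, with a higher value and more covered bases in U2OS.

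MAFF (gene 23764, chr22:38201994-38216511, plus strand) showed the same order. Its first start was covered by a hotspot of 238 bp with a −log10 of 3.17 in Saos-2 and of 414 bp with 10.998 in U2OS, and no hotspot covered the window of its second start. The U2OS hotspot covered all 300 bases of the promoter window and the Saos-2 hotspot 183 of them. BATF3 (gene 55509, chr1:212686417-212699840), known from dendritic cell development, had 1 U2OS hotspot inside its span, 603 bp from the upper-coordinate end, with a −log10 of 3.09. In Saos-2 the nearest hotspot was more than 10 kb away.

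ATF3 (gene 467, chr1:212565407-212620777, plus strand), a stress-induced repressor and activator, had no hotspot within 1 kb of either of its 2 table starts. A start that the table lacks would have been missed. Inside the ATF3 span, both lines shared a pair of strong hotspots, and whether either lies at such a start was not tested. One lay at chr1:212595858-212596689 in U2OS (832 bp, −log10 35.7) and at chr1:212596172-212596618 in Saos-2 (447 bp, 15.2). The other lay at chr1:212608190-212608907 in U2OS (718 bp, 29.8) and at chr1:212608268-212608854 in Saos-2 (587 bp, 17.0). In each line these values exceeded the promoter hotspots of the other 9 genes. A weak overlapping pair lay 1.82 kb past the first start, with a −log10 of 1.63 in Saos-2 and 2.03 in U2OS.

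To compare distal sites by gene, hotspots in the windows that were not at an AP-1 gene start were counted. There were 92 in Saos-2 and 122 in U2OS, of which 28 and 31 lay within 1 kb of a start of another protein-coding gene. The windows held a median of 11.5 hotspots per gene in Saos-2 and 13.5 in U2OS, against 6.0 and 8.0 over protein-coding genes, with FOS in Saos-2 (3) and JUNB in U2OS (7) below these medians. Counting all classes, U2OS had 1.35-fold as many hotspots as Saos-2 in the windows (exact 95% interval 1.03 to 1.77, counting error only), and 36448 against 27775 covered bases. The lists as a whole differ 1.23-fold, which lies inside that interval. When the U2OS list was shortened to the length of the Saos-2 list by significance, each line had 92 distal hotspots. Covered bases were then 27775 in Saos-2 and 32463 in U2OS, so the difference in count was lost and that in covered bases was smaller.

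**Figure D2:**
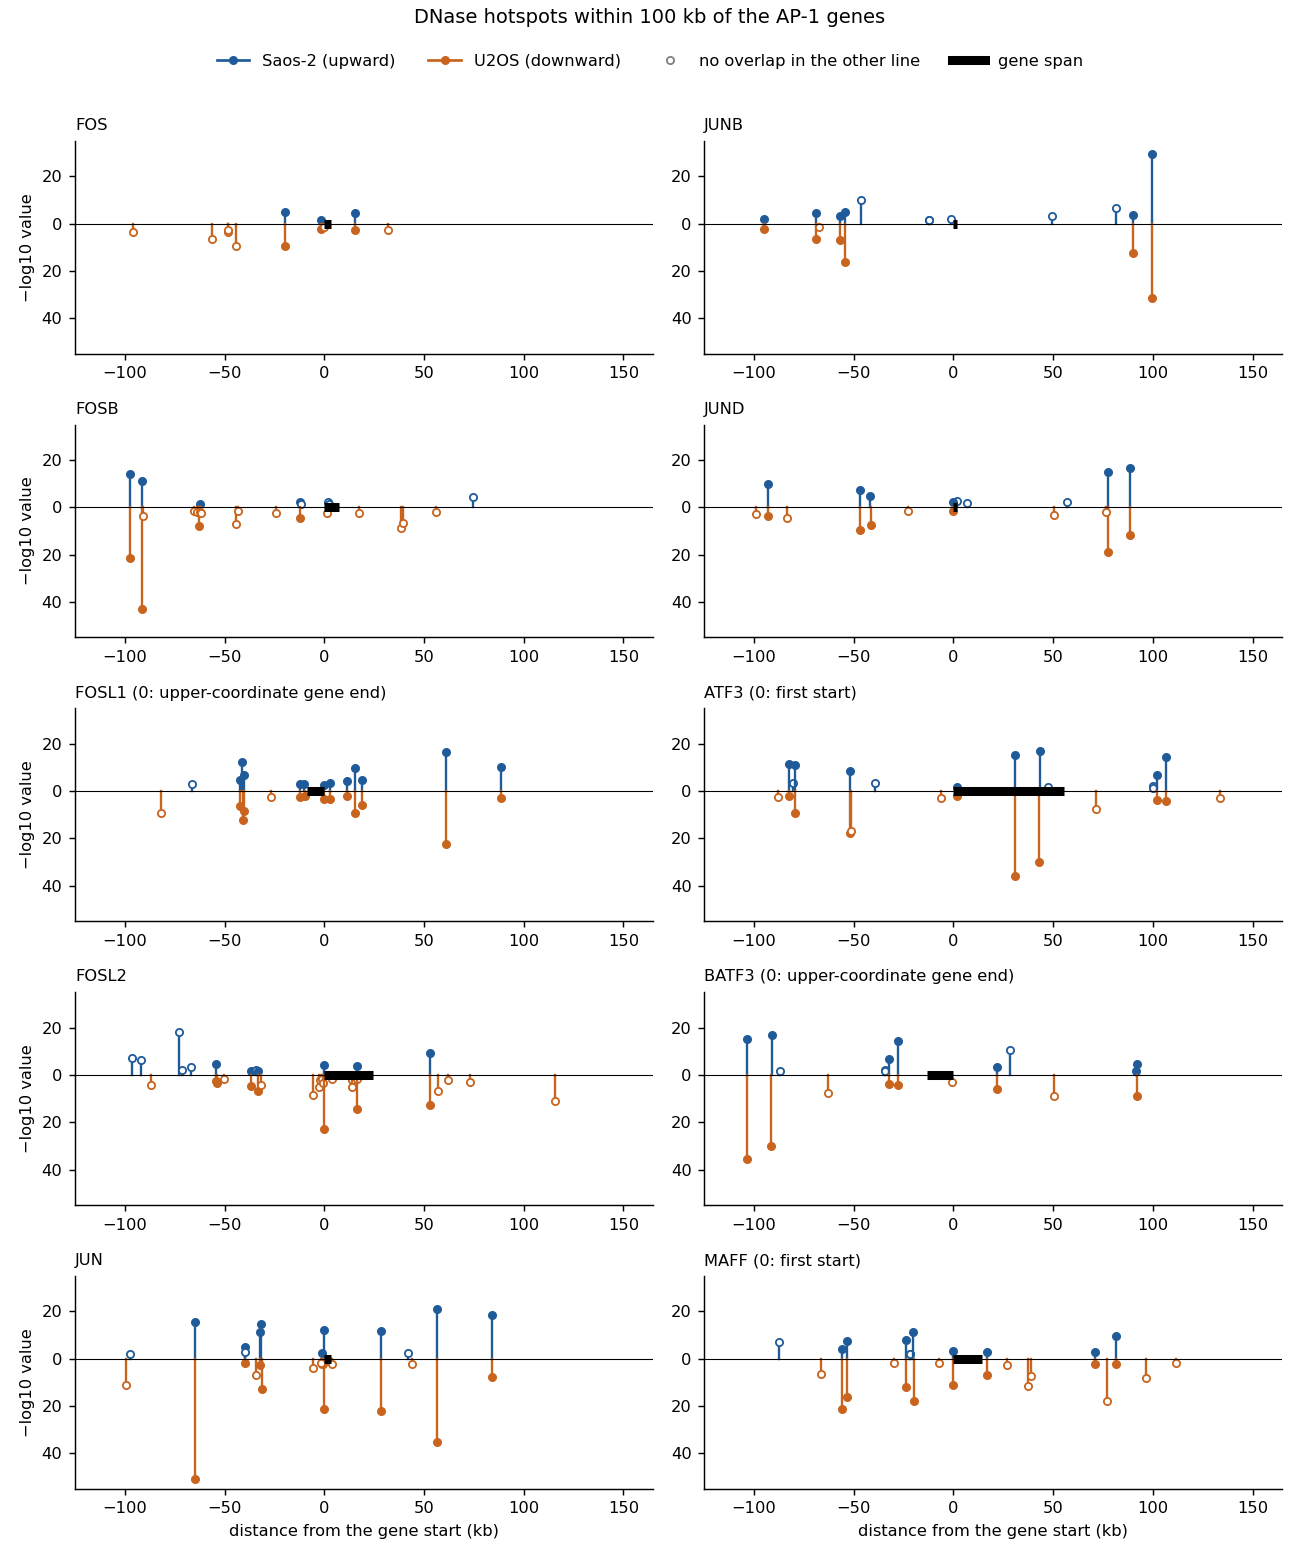
Each panel shows the hotspots of an AP-1 gene window by distance from the gene start in kb, positive in the direction of transcription (for FOSL1 and BATF3, from the upper-coordinate end in the direction of the coordinates). Stems give the −log10 significance, upward for Saos-2 and downward for U2OS, filled circles are overlapped by the other line and open ones are not, and black bars are gene spans. Open U2OS circles lie in every panel, with 16 at FOSL2, 13 at FOSB, 9 at MAFF and 7 each at FOS and JUN. Open Saos-2 circles lie in every panel but that of FOS. They are most numerous at JUNB, on both sides, and upstream of FOSL2, with 6 each.

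By gene, the U2OS count was higher for FOS, FOSB, FOSL1, FOSL2, JUN, JUND and MAFF, equal for ATF3 and lower for JUNB and BATF3. In lists of equal length the U2OS count was below that of Saos-2 also for FOSL1 (12 against 13), JUN (11 against 12), JUND (8 against 9) and ATF3 (10 against 13), and it stayed higher for FOS, FOSB, FOSL2 and MAFF. FOS had the largest ratio, from 3 hotspots (Saos-2) against 10 (U2OS; 3.33-fold, exact interval 0.858 to 18.8). FOSL2 had 12 and 23 (1.92-fold, 0.915 to 4.23), FOSB 8 and 17 (2.13-fold), and MAFF 11 and 17 (1.55-fold). JUNB had 12 and 7 (0.583-fold, 0.195 to 1.61). The interval of each of the 10 ratios included the list ratio of 1.23, so no single window was shown to depart from it at these counts.

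Covered bases in the window were at least 2-fold higher in U2OS for 2 of the 10 genes, FOS (685 and 2311 bp) and FOSB (1699 and 4333 bp). The background was 23.4% of protein-coding genes, so 2 of 10 is near it. None was 2-fold higher in Saos-2, where the background was 5.55%. The median ratio of the 10 genes was 1.19, against 1.22 over protein-coding genes. JUND (2893 and 2905 bp) and ATF3 (4095 and 4279 bp) were nearly equal, and FOSL1 (4129 and 3580 bp) and JUNB (2788 and 2095 bp) had more covered bases in Saos-2. The FOS ratio was 1.70 instead of 3.37 in the upper 50% of each list, the FOSB ratio was 1.81 instead of 2.55 within 250 kb, and within 50 kb the ratio of FOSL2 was 3.97 instead of 1.72. The MAFF ratio was 2.07 instead of 1.67 in the upper 50%. Ratios near 1 changed side with the setting. That of FOSL1 was 1.26 within 250 kb, that of JUNB 1.04 in the upper 50%, and that of BATF3 0.767 within 50 kb. That of JUND was as low as 0.842 and that of ATF3 as low as 0.962, both in the upper 50%.

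**Figure D3:**
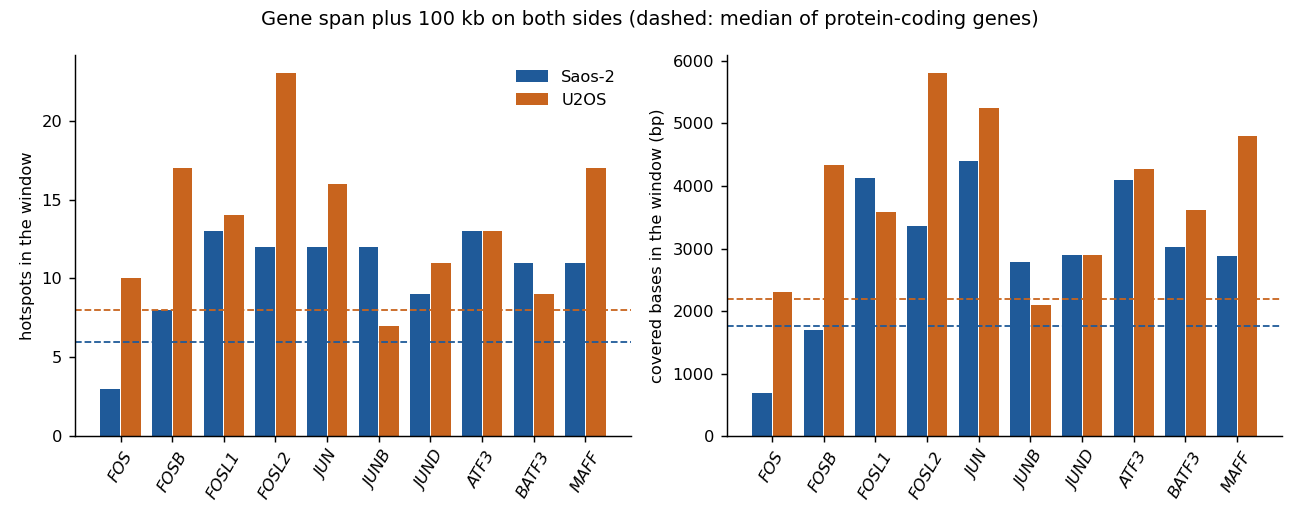
Bars give the number of hotspots (left) and the hotspot-covered bases (right) in each AP-1 gene window for Saos-2 (blue) and U2OS (orange), with 1 library each, and dashed lines give the median over protein-coding genes. FOS in Saos-2 and JUNB in U2OS lie below the median in both panels, FOSB in Saos-2 lies below it for covered bases, and FOSL2 in U2OS is the tallest bar in both.

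The FOSL2 window held the most hotspots of the 10 in U2OS, while in Saos-2 those of FOSL1 and ATF3 held 13 against its 12. In U2OS, 11 hotspots formed a chain with gaps of at most 9.56 kb across 22.6 kb, from chr2:28387091 to chr2:28409699, through FOSL2-AS1, the FOSL2 start and the first part of the gene. In the same stretch Saos-2 had 2 hotspots, the promoter hotspot and 1 inside the gene. Within 10 kb of the gene span, a distance chosen after the values were seen, the U2OS count of 11 exceeded that of 97.5% of protein-coding genes, and the Saos-2 count of 2 exceeded 50.1%. Some of these 11 hotspots lie close together or are weak, with −log10 values down to 1.67. The U2OS count of the whole window fell from 23 to 19 when gaps below 150 bp were merged. In lists of equal length it was 17, against 12 in Saos-2 in both settings. The rank was not recomputed for these settings. The strongest distal U2OS site, at chr2:28409211-28409699 inside FOSL2, had a −log10 of 14.5 and overlapped a Saos-2 hotspot of 3.61.

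Farther upstream of FOSL2, Saos-2 had the stronger site. The strongest distal Saos-2 site, at chr2:28319654-28320209 inside BABAM2 and 72.6 kb before the FOSL2 start, was 556 bp wide with a −log10 of 18.2 and had no U2OS overlap. BABAM2 held 6 Saos-2 hotspots of the window, 1 of them overlapped, and 3 U2OS hotspots, 2 of them overlapped. Away from protein-coding starts 52.0% of the Saos-2 list and 41.2% of the U2OS list were overlapped. The strongest U2OS site without overlap, of −log10 11.2, lay 115 kb past the start inside PLB1. Of all hotspots of the FOSL2 window, 6 of 12 in Saos-2 and 7 of 23 in U2OS were overlapped, the promoter and the strongest site inside the gene among them.

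At JUN the strong distal sites were shared. The strongest distal U2OS site, at chr1:58848683-58849461 (779 bp) within JUN-DT, a noncoding gene that starts beside JUN, had a −log10 of 50.8 and overlapped a Saos-2 site of 15.6. The strongest distal Saos-2 site, at chr1:58727408-58727788 and 56.3 kb past the JUN start within LOC112268263, had 21.1 and overlapped a U2OS site of 35.3. Of the distal hotspots, 8 of 11 in Saos-2 and 8 of 14 in U2OS were overlapped, each count including 1 at the start of MYSM1. The list shares away from protein-coding starts are 52.0% and 41.2%, and the difference from them was not tested. Around the JUN gene itself U2OS had a chain of 6 hotspots across 9.73 kb, and Saos-2 had 2 within 10 kb. Within this distance, chosen after the values were seen, the U2OS count of 6 exceeded that of 90.3% of protein-coding genes. The Saos-2 count of 2 exceeded 50.1%. The strongest U2OS site without overlap, of −log10 10.97, lay 99.2 kb before the start, while the strongest such Saos-2 site had 2.92.

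Of the 9 distal U2OS hotspots of FOS, 7 lay upstream and 2 downstream. A chain of 4 hotspots without Saos-2 overlap lay between chr14:75222243 and chr14:75234866, and the strongest of them, 44.0 kb before the start, had a −log10 of 9.47. The 3 Saos-2 hotspots of the window were all overlapped (list share 52.0%), and the strongest, 19.5 kb before the FOS start, had 5.04 against 9.36 in U2OS. None of these lay in a protein-coding gene. In the FOSB window, which is dense in genes, 2 of 9 U2OS hotspots at starts of other genes were overlapped (list share 70.6%), as were 2 of 8 others (41.2%). The 9 are not separate promoters, since PPP1R13L, ERCC1 and VASP each had more than 1 of them, and 1 of those at PPP1R13L was overlapped. The strongest U2OS site of the FOSB window lay 91.3 kb before the start at chr19:45376293-45376740, with a −log10 of 43.1 against 10.97 in Saos-2. Its strongest Saos-2 site lay at the start of ERCC2 (14.2 against 21.5 in U2OS). The strongest U2OS site without overlap, of −log10 8.53, was within 1 kb of a start of VASP, and that of Saos-2, of 4.50, lay inside OPA3.

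In the FOSL1 window 12 of 13 hotspots in Saos-2 and 12 of 14 in U2OS were overlapped. At other protein-coding starts it was 7 of 8 in both lines, where the list shares are 80.5% and 70.6%. Its strongest distal site, at the start of SART1, had a −log10 of 16.6 in Saos-2 and 22.3 in U2OS. Chains of 7 hotspots spanned 31.0 kb in Saos-2 and 30.9 kb in U2OS around the gene. The strongest sites without overlap were 3.18 at SNX32 in Saos-2 and 9.21 in U2OS, 73.5 kb below the gene.

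JUNB and JUND lie in gene-dense parts of chromosome 19. At JUNB 7 of 7 U2OS hotspots were within 1 kb of a start of another gene, and 6 of them were overlapped (list share 70.6%). In Saos-2, 6 of 8 at such starts were overlapped (80.5%) and none of the 4 others (52.0%), and the difference between the lines was not tested. The strongest site of both lines was at the start of GCDH, with a −log10 of 29.6 in Saos-2 and 31.2 in U2OS. The strongest Saos-2 site without overlap, of 9.96, lay inside GET3 and 46.0 kb before the JUNB start, and the only U2OS one, of 1.46, was near a start of TNPO2. At JUND, 6 hotspots of each line were overlapped, out of 9 in Saos-2 and 11 in U2OS. These counts mix hotspots at starts (list shares 80.5% and 70.6%) with others (52.0% and 41.2%). The strongest were at MPV17L2 in Saos-2 (16.7) and at RAB3A in U2OS (18.8), and those without overlap reached 2.53 at the 3′ end of JUND in Saos-2 and 4.57 inside PGPEP1 in U2OS.

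In the ATF3 and BATF3 windows, the sites inside ATF3 described above were the strongest of both lines. The strongest U2OS site without overlap near ATF3, at chr1:212513983-212514320 inside LOC105372908, had a −log10 of 16.7, against 3.41 for the strongest such Saos-2 site. This U2OS site lay beside a U2OS hotspot of 17.5 at chr1:212513033-212513581, which overlapped a Saos-2 hotspot of 8.67. Between the genes, a site at chr1:212671658-212672071 was stronger in Saos-2, with 14.5 against 4.10. Beyond BATF3, inside NSL1, Saos-2 had a site of 10.4 and U2OS another of 8.85, neither with an overlap. At MAFF the strongest Saos-2 site was at the start of PLA2G6 (11.2 against 17.9 in U2OS), and the strongest U2OS site, inside the same gene, had 21.1 against 4.21 in Saos-2. The strongest MAFF site without overlap was 17.9 in U2OS, 75.7 kb past the start, and 6.91 in Saos-2, inside PLA2G6.

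Overlap was then compared between promoter and distal hotspots. At the AP-1 gene starts, 5 of 5 Saos-2 hotspots (exact 95% interval 47.8 to 100%) and 5 of 9 U2OS hotspots (55.6%, 21.2 to 86.3%) were overlapped by the other line. In the whole lists 80.5% and 70.6% of hotspots at protein-coding starts were. At starts of other genes in the windows the shares were 82.1% (63.1 to 93.9%) and 71.0% (52.0 to 85.8%). Away from protein-coding starts they were 57.8% (44.8 to 70.1%) of 64 in Saos-2 and 41.8% (31.5 to 52.6%) of 91 in U2OS, against 52.0% and 41.2% in the lists. The intervals of the windows included the list value in each class, although hotspots lying close together may share an open region, which makes these intervals too narrow.

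**Figure D4:**
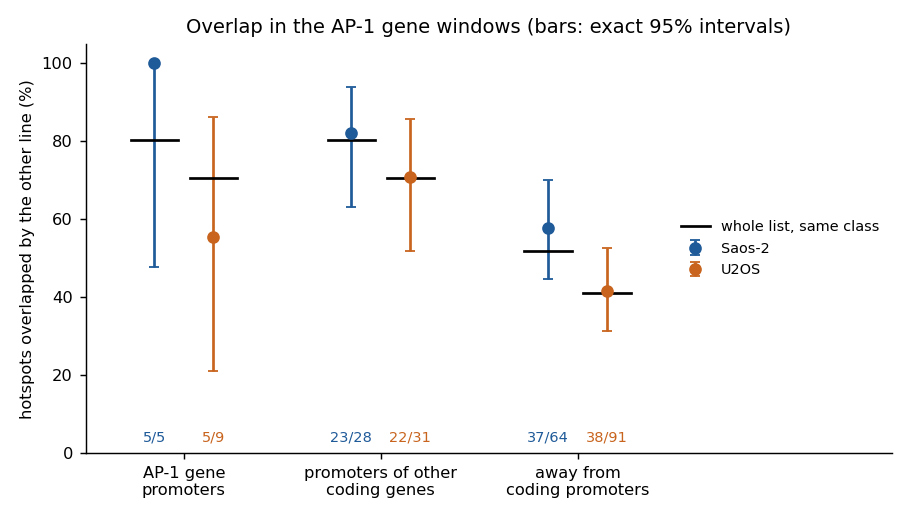
Points give the percentage of hotspots in the AP-1 gene windows that the other line overlapped by at least 1 bp, with exact 95% intervals and the counts below (blue, Saos-2; orange, U2OS). Black lines give the same class in the whole list, and each interval spans its line.

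Hotspots without overlap were weaker and narrower. In the windows their median −log10 was 2.31 in Saos-2 and 2.92 in U2OS, against 5.02 and 7.58 for overlapped hotspots. By median width they measured 161 bp in Saos-2 (overlapped, 290 bp), and in U2OS 192 bp (overlapped, 316 bp). In 62 pairs, 1 hotspot of each line overlapped the other and no further hotspot. The value was higher in U2OS in 41 of them (66.1%, exact interval 53.0 to 77.7%), where the background over 27672 such pairs was 62.7%. Sites where 1 hotspot met 2 of the other line were left out. In the FOSL2 window such a site had 4.785 in Saos-2 against 2.61 and 3.48 in U2OS. In the BATF3 window another had 1.52 and 4.46 in Saos-2 against 9.04 in U2OS. At the AP-1 starts U2OS was higher for FOSL1, FOSL2, JUN and MAFF and Saos-2 for JUND. The pairs near FOSB (4 of 4), FOSL2 (5 of 5) and JUNB (6 of 6) all had the higher value in U2OS, while those near FOSL1 (6 of 12), JUN (4 of 9) and ATF3 (4 of 8) were split. By ratio the pair that favoured Saos-2 most lay in the ATF3 window, with 11.3 against 2.02, and by difference it lay in the JUN window, with 18.7 against 7.58.

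**Figure D5:**
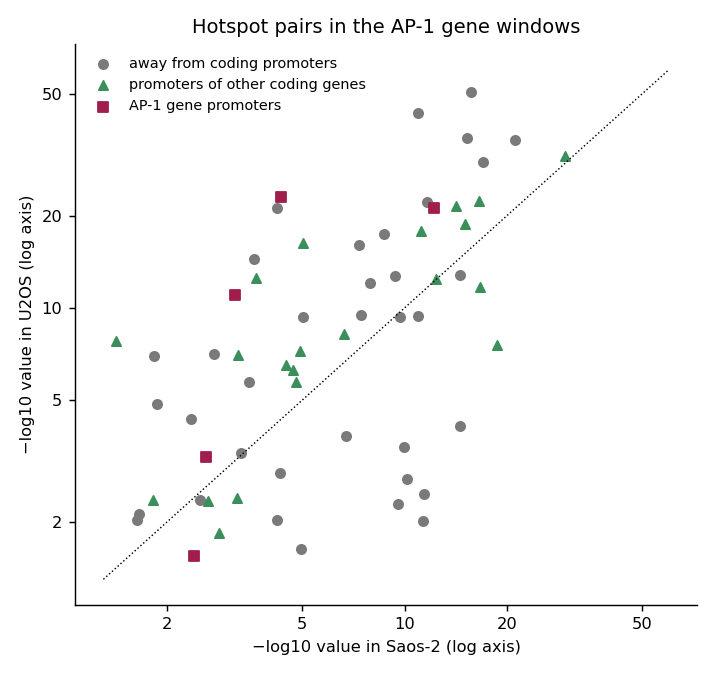
Each point is a pair of hotspots in the AP-1 gene windows that overlap each other and no further hotspot. It is placed by its −log10 significance in Saos-2 and in U2OS on log axes (squares, AP-1 gene starts, triangles, starts of other protein-coding genes, circles, elsewhere). Of 62 pairs, 41 lie above the dotted line of equal values, and the FOSL2 promoter is the square at 4.32 and 22.99.

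Other genes of the pathway were counted from lists of genes by known role. Of 15 further zipper proteins, 10 had a promoter hotspot in both lines and 2 in U2OS only, JDP2 (−log10 5.61), a partner of JUN proteins, and BACH2 (3.18), a repressor that pairs with small MAF proteins. Of 13 upstream kinases and factors, 10 had one in both lines, and MAPK3 (2.01) and MAPK9 (4.24), which encode ERK1 and JNK2, had one in Saos-2 only. SRF, which drives FOS through the CArG box, had 29.6 in Saos-2 and 27.4 in U2OS. Of 10 further immediate early genes, 5 had one in both lines, and NR4A1 (5.06) and DUSP1 (3.02) in U2OS only. Of 12 genes known as AP-1 targets, 6 had one in both lines, and CCND1 (5.02) and HMOX1 (2.86) in U2OS only. The corresponding background shares are 43.3% for both lines, 10.1% for U2OS only and 4.79% for Saos-2 only.

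The cell lines were checked against marker genes in the same way. Of 9 osteoblast lineage genes 4 had a promoter hotspot in each line, RUNX2, SPARC and BGLAP in both, ALPL in Saos-2 (2.91) and COL1A1 in U2OS (2.22), and SP7, COL1A2, SPP1 and IBSP in neither. Of 5 haematopoietic genes 2 had one in both lines, and of 5 epithelial genes 1 had one in Saos-2 and 2 in U2OS. Of 2 liver genes 1 had one in both lines. Over all protein-coding genes 48.1% had one in Saos-2, 53.5% in U2OS and 43.3% in both. The marker shares do not separate the osteoblast markers from the others, and a hotspot at a gene end is not a measure of its expression.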

How the data were processed

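DNase-seq of nuclei from Saos-2 and U2OS was analysed from 1 deposited hotspot list per library. Per the submitters' processing notes, Trimmomatic 0.38 and BWA 0.7.15 were used on hg38. The hotspot caller and the treatment of duplicate reads are not given in the sources used here. The authors deposited a −log10 value for each hotspot, taken as its significance from a minimum of 1.301 that matches a false discovery rate of 0.05. The deposited score column is this value multiplied and rounded, and was not used. No read count was given, so depth is unknown.

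Python 3.11.15 with pandas 2.3.3 and scipy 1.17.1 was used to assign hotspots to windows, to count overlaps of at least 1 bp and to compute exact (Clopper-Pearson) 95% intervals, which cover counting error only. The interval code was tested on simulated hotspots. Starts came from the RefSeq promoter table for 15842 of 20033 protein-coding genes and were replaced by both gene ends for the rest, so some 3′ ends count as starts.

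The genes, lists and windows were chosen with earlier results of these data known. Named sites are the promoter hotspots, and per gene and line the strongest distal hotspot and the strongest without overlap. The alternatives were 50% overlap, the top 50% of each list, lists of equal length, merging below 150 bp, other promoter distances and windows, and a width minimum of 200 bp.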

Additional observations from a re-analysis of the deposited data

How the results depend on the processing

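No paired analysis was possible because each line had 1 library, and for the same reason no library was left out. Of 371 values recomputed, 259 stayed within their limits (1.5-fold for counts, the exact interval for shares) and no ratio of at least 2-fold changed sides. The number of AP-1 genes with a promoter hotspot was 2 in Saos-2 and 3 in U2OS in the top 50% of each list, 9 in Saos-2 within 2.5 kb, and 4 in U2OS for hotspots of at least 200 bp. Distal hotspots numbered 50 and 60 in the top 50%, 53 and 72 within 50 kb, 189 and 227 within 250 kb, and 79 in U2OS at 200 bp or more. Covered bases were 14930 and 21457 within 50 kb and 55359 and 70098 within 250 kb, as the window sets the possible length. Under a reciprocal overlap of 50%, distal hotspots were matched in 52.2% of cases in Saos-2 and 39.3% in U2OS. The U2OS promoter hotspots of FOS and JUND were absent from lists of equal length, and that of BATF3 within 500 bp. JUNB gave no covered ratio within 50 kb, where U2OS had no hotspot. Unknown depth limits every comparison of a level between the lines.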
